A study of Homo sapiens with 6 samples.

Results

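IL6, CSF2 and CSF3 are genes of secreted cytokines, and their transcripts were followed in NCI-H292, a human lung cancer line kept in culture. They were taken by gene symbol from the authors' deposited table of differentially expressed genes, where all 3 were present among 1305 genes. The cells had been exposed for 48 hours to 50 nM mitoxantrone, a chemotherapy agent that poisons topoisomerase II and breaks DNA, or to the solvent DMSO at 1 part in 1000. There were 3 RNA sequencing libraries with mitoxantrone and 3 with DMSO. Separate cultures are not stated in the labels, and p-values therefore cover the spread between libraries, which may be technical.

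Interleukin 6, the product of IL6, binds its receptor together with the shared signalling chain gp130 and activates JAK kinases and the transcription factor STAT3. CSF2 encodes granulocyte-macrophage colony-stimulating factor, which acts on granulocytes, macrophages and dendritic cells through a receptor with the common beta chain. CSF3 encodes granulocyte colony-stimulating factor, which drives the production and release of neutrophils. All 3 are held at low levels in resting epithelial cells, are induced through NF-kappaB, and belong to the secretome described for senescent cells, a state of lasting growth arrest that the series title names.

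All 3 cytokine transcripts were higher with mitoxantrone. IL6 was 5.61-fold higher, CSF2 15.1-fold higher, and CSF3, which was barely detected, had 20 reads in the mitoxantrone libraries against 1 read in the DMSO libraries. Together the 3 genes took 148, 124 and 137 reads in mitoxantrone libraries 1, 2 and 3, against 25, 23 and 24 reads in DMSO libraries 1, 2 and 3. Scaled to library totals these sums were 10.03, 7.92 and 9.24 CPM with mitoxantrone and 1.42, 1.46 and 1.35 CPM with DMSO. Every mitoxantrone library was above every DMSO library for each of the 3 genes, as it was for 60.1% of the deposited genes. All 3 also passed an adjusted p of 0.05 as higher in the edgeR quasi-likelihood test, as did 56.7% of the deposited genes. The authors had already selected the deposited genes as changed on these libraries, so neither count is independent evidence. The RNA came from whole cultures, so more expressing cells and more RNA per cell cannot be told apart.

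The libraries held 14762536 to 15663339 reads with mitoxantrone and 15789350 to 17817791 reads with DMSO, solved from counts, lengths and FPKM. The deposited genes took 6.08% to 6.20% of these reads with mitoxantrone and 3.97% to 4.04% with DMSO. Of 12 epithelial markers, KRT8, KRT18 and ELF3 were in the table. Because the table holds only genes selected as changed, these markers cannot check the identity of the cells. KRT8, a keratin of simple epithelia, had 74483 to 87437 reads with mitoxantrone and 33061 to 36964 reads with DMSO. KRT18, its partner keratin, also rose (log2 fold change 1.19), and ELF3, an epithelial transcription factor, fell to 1272 to 1416 reads with mitoxantrone, against 3144 to 5304 reads with DMSO (log2 fold change -1.28). Genes outside the deposited table, EPCAM and PTPRC among them, were not analysed here.

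The sequences just upstream of the RefSeq starts of IL6 and CSF2, whose promoters are textbook NF-kappaB-responsive regions, are shown as background. The part of these sequences in the rise of the genes was not tested. CSF3 had no entry in the promoter set used and is not shown. Each stretch covers the 250 bases before the start on the plus strand of GRCh38.p14, chr7:22726950-22727199 for IL6 and chr5:132073539-132073788 for CSF2, from the RefSeq promoter table. Capitals mark matches, on either strand, to a kappaB-type motif (GGG and CC with 5 free bases between them), a C/EBP-type motif (TTGCNNAA) or the CK-1-type motif of colony-stimulating factor genes (GAGATTCC).
IL6: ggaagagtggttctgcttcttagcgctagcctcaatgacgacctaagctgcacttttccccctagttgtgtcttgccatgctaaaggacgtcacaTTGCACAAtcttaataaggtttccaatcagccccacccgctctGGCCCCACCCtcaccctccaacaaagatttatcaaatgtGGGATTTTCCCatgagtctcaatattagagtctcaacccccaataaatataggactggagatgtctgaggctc
CSF2: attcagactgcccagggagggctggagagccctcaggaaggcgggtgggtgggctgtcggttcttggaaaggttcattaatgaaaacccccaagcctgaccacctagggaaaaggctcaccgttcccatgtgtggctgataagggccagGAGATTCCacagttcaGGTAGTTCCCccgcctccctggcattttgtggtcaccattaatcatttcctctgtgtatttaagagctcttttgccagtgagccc
The IL6 stretch held a C/EBP-type match at bases -155 to -148, counted back from -1 at the base before the start. Its kappaB-type matches were at -112 to -103 on the minus strand, at -73 to -64 on the plus strand, and at -72 to -63 on the minus strand, the last pair overlapping. The CSF2 stretch held the CK-1-type match at -101 to -94 and a kappaB-type match at -85 to -76 on the minus strand. Of 35116 promoter stretches of this length, 54.4% held a kappaB-type match, 9.05% a C/EBP-type match and 0.73% a CK-1-type match. An AP-1-type motif (TGANTCA), held by 6.57% of the stretches, and a TATA box (TATAAA), held by 10.7%, had no match in either. A match describes letters in the sequence, and no binding was measured.

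IL6 had enough reads in every library for its rise to be measured closely. Its gene, ENSG00000136244, was placed by the authors' table on chromosome 7 from 22765503 to 22771621 on the plus strand, with the build not given in the sources used here. That start differs from the GRCh38 start of GENCODE release 29, and the same held for CSF2 and CSF3. IL6 had 121, 85 and 102 reads in mitoxantrone libraries 1, 2 and 3, against 25, 22 and 18 reads in DMSO libraries 1, 2 and 3. The lowest mitoxantrone library was thus well above the highest DMSO library. After scaling by the authors' size factors, IL6 averaged 112 ± 24.2 normalized reads with mitoxantrone and 19.9 ± 3.89 normalized reads with DMSO (SD, n = 3 each). The log2 fold change was 2.49 with a standard error of 0.26 (adjusted p = 5.0e-06, edgeR quasi-likelihood test, Benjamini-Hochberg over the authors' 18313 tests). From the summed reads, 308 with mitoxantrone and 65 with DMSO, the ratio was 5.64 with a 95% exact interval of 4.30 to 7.48 that covers counting error only. Size factors computed over the deposited genes alone lowered the fold to 3.49 (TMM) or 2.84 (DESeq2), with adjusted p-values of 1.6e-04 and 0.0012 in the edgeR quasi-likelihood test. On GRCh38, STEAP1B and an antisense gene overlap IL6 on the opposite strand. Whether reads were counted by strand is not stated, so reads of the overlapping genes cannot be told apart from those of IL6.

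CSF2 was near the limit of detection with DMSO and clearly detected with mitoxantrone. The gene, ENSG00000164400, lies on chromosome 5 from 131409483 to 131411859 on the plus strand in the authors' table. It had 23, 30 and 28 reads in mitoxantrone libraries 1, 2 and 3, against 0, 1 and 5 reads in DMSO libraries 1, 2 and 3. The mitoxantrone libraries lay close together, while DMSO library 3 held nearly all of the DMSO reads. The 0 in DMSO library 1 allows up to 3 reads, which is 0.218 FPKM there. Normalized reads averaged 29.1 ± 2.75 with mitoxantrone and 1.77 ± 2.24 with DMSO (SD, n = 3 each). The log2 fold change was 3.92 with a standard error of 0.58 (adjusted p = 1.6e-04, edgeR quasi-likelihood test, Benjamini-Hochberg). The fold rested on the few DMSO reads: without DMSO replicate 3 it was 49.0, and without DMSO replicate 1 it was 10.04, with adjusted p-values of 1.6e-04 and 0.0014 in the edgeR quasi-likelihood test. Factors over the deposited genes gave 9.51 (TMM) or 7.76 (DESeq2). The ratio of summed reads, 81 with mitoxantrone against 6 with DMSO, was 16.1 with a 95% exact counting interval of 7.07 to 45.0.

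CSF3 was detected in all mitoxantrone libraries, at a few reads each. The gene, ENSG00000108342, lies on chromosome 17 from 38171614 to 38174066 on the plus strand in the authors' table. It had 4, 9 and 7 reads in mitoxantrone libraries 1, 2 and 3, against 0, 0 and 1 reads in DMSO libraries 1, 2 and 3. The groups did not overlap, but the 0 in DMSO library 1 allows up to 3 reads (0.0768 FPKM), close to the 4 reads of the lowest mitoxantrone library. Normalized reads averaged 7.14 ± 2.45 with mitoxantrone and 0.286 ± 0.495 with DMSO (SD, n = 3 each). The log2 fold change was 4.10 with a standard error of 0.96 (adjusted p = 0.012, edgeR quasi-likelihood test, Benjamini-Hochberg). The ratio of summed reads was 23.8 with a 95% exact counting interval of 3.81 to 986. The call ended without mitoxantrone replicate 2 (adjusted p = 0.075) and without DMSO replicate 1 (adjusted p = 0.064) in the same edgeR test, and with TMM (0.066) or DESeq2 factors (0.15) over the deposited genes, where adjusted p-values over all alternatives ran from 0.0035 to 0.15. Without DMSO replicate 3 the remaining DMSO libraries held no CSF3 read, and the fitted log2 fold change of 5.84 is then set by the prior count and is no bound.

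**Figure D1:**
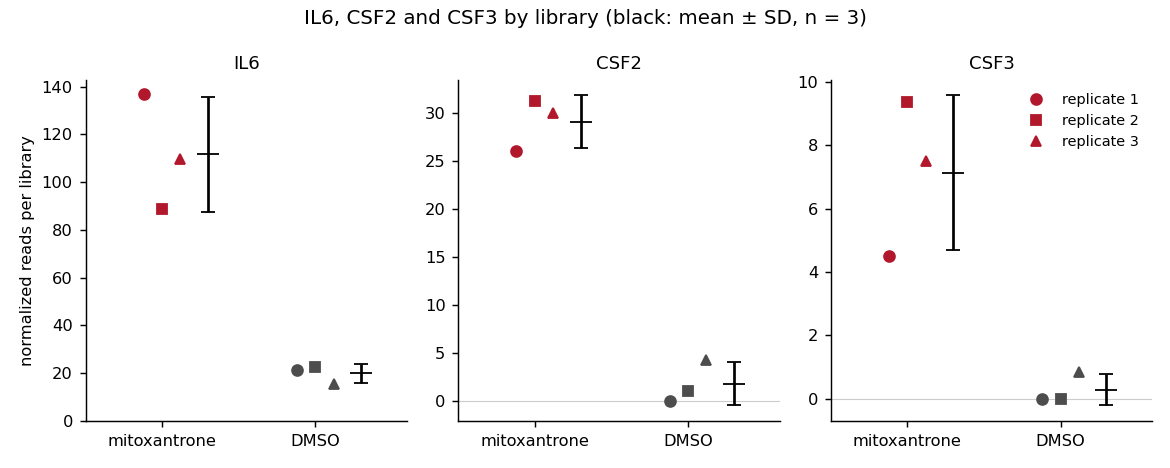
Normalized reads per library (vertical axis, reads divided by the authors' size factors) of IL6, CSF2 and CSF3, with the 3 mitoxantrone libraries left of the 3 DMSO libraries and the mean ± SD (n = 3) in black. The panels have different scales, and in each the lowest mitoxantrone library (88.6 for IL6, 26.0 for CSF2, 4.52 for CSF3) lies above the highest DMSO library (22.7, 4.28 and 0.857).

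The libraries did not rank alike for the 3 genes. Mitoxantrone library 1 had the most IL6, at 136.8 normalized reads, and the least CSF2 and CSF3, at 26.0 and 4.52 normalized reads. Mitoxantrone library 2 had the least IL6, at 88.6 normalized reads, and the most CSF2 and CSF3, at 31.3 and 9.38 normalized reads. Among the DMSO libraries, library 3 had the least IL6, at 15.4 normalized reads, and the most CSF2 and CSF3, at 4.28 and 0.857 normalized reads. The CSF2 and CSF3 orders rest on few reads. With mitoxantrone these were 23, 30 and 28 for CSF2 and 4, 9 and 7 for CSF3. With DMSO they were 0, 1 and 5 for CSF2 and 0, 0 and 1 for CSF3. With 3 libraries a group, these orders are a description, and whether they exceed counting error was not tested.

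Over the deposited gene lengths, IL6 and CSF2 were at like levels with mitoxantrone, and CSF3 was far lower. IL6 had 3.02, 2.00 and 2.54 FPKM in mitoxantrone libraries 1, 2 and 3, against 0.52, 0.51 and 0.37 FPKM in DMSO libraries 1, 2 and 3. CSF2 had 1.99, 2.45 and 2.41 FPKM with mitoxantrone, against 0, 0.08 and 0.36 FPKM with DMSO. CSF3 had 0.12, 0.26 and 0.21 FPKM with mitoxantrone, against 0, 0 and 0.03 FPKM with DMSO. The ranges of IL6 and CSF2 overlapped with mitoxantrone, while CSF3 lay below both. With DMSO the lowest IL6 value, 0.37 FPKM, was just above the highest CSF2 value, 0.36 FPKM, both in library 3. In that library 1 CSF2 read is worth 0.0717 FPKM, so the gap is smaller than 1 read. Averaged over libraries, IL6 was at 2.52 ± 0.510 FPKM, CSF2 at 2.28 ± 0.255 FPKM and CSF3 at 0.197 ± 0.0710 FPKM with mitoxantrone (SD, n = 3 each). Over these lengths IL6 made up 50.4% of the summed FPKM of the 3 genes with mitoxantrone and 74.9% with DMSO. CSF2 made up 45.7% with mitoxantrone and 23.5% with DMSO. By mean FPKM among the 1305 genes, IL6 stood at percentile 60.3 with mitoxantrone and 36.6 with DMSO, and CSF2 at percentile 58.4 with mitoxantrone and 17.8 with DMSO.

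The order of IL6 and CSF2 depended on the gene length used. The authors' table gives IL6 a length of 2711 bases, more than the 1182 bases of its principal GENCODE transcript, which has 5 exons. For CSF2 the deposited 783 bases and the 787 bases of its principal transcript, with 4 exons, are almost equal, and for CSF3 they were 2220 and 1509 bases. Recomputed over the principal transcripts, a choice made after the data were seen, IL6 had 6.93, 4.59 and 5.82 FPKM in mitoxantrone libraries 1, 2 and 3, against 1.20, 1.18 and 0.855 FPKM in DMSO libraries 1, 2 and 3. CSF2 kept 1.98, 2.43 and 2.40 FPKM with mitoxantrone, so that the lowest IL6 value was above the highest CSF2 value. The near-equal shares of IL6 and CSF2 with mitoxantrone given above therefore hold for the deposited lengths only. Over the principal transcripts IL6 averaged 5.78 FPKM and CSF2 2.27 FPKM with mitoxantrone, against 1.08 and 0.146 FPKM with DMSO. Fold changes between treatments do not depend on gene length.

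**Figure D2:**
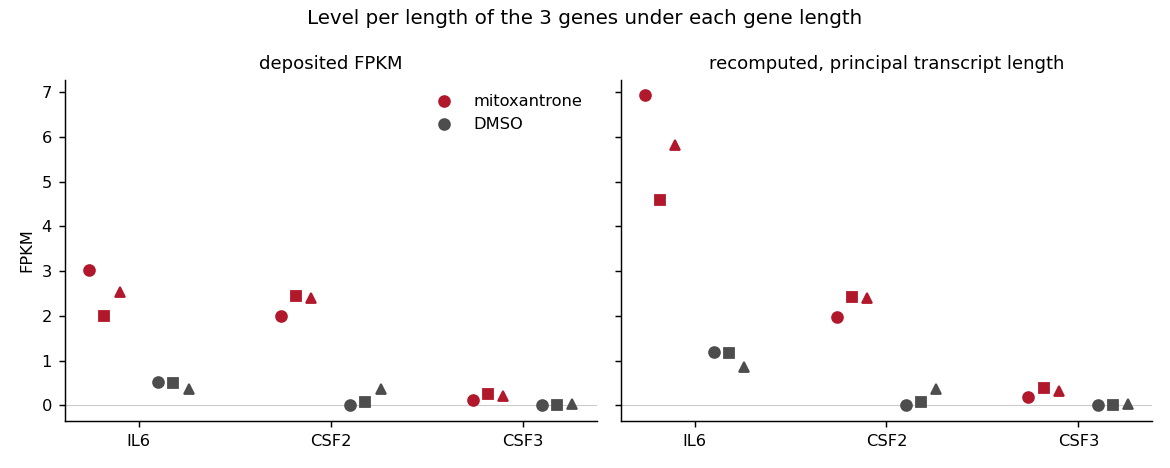
FPKM (vertical axis) of the 3 genes in each library, mitoxantrone left of DMSO within each gene, with the authors' deposited gene lengths (left panel) and with the lengths of the principal GENCODE transcripts (right panel). With mitoxantrone, IL6 (2.00 to 3.02 FPKM) and CSF2 (1.99 to 2.45 FPKM) overlap on the left and separate on the right, where IL6 is at 4.59 to 6.93 FPKM.

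Whether the make-up among the 3 cytokines differed was tested within libraries, which needs no scaling between them. The log2 ratio of CSF2 to IL6, with 0.1 FPKM added to each, averaged -0.12 ± 0.43 with mitoxantrone and -1.48 ± 1.32 with DMSO (SD, n = 3 each). The difference of 1.35 had a two-sided exact permutation p of 0.30. Its size was not stable: it was 2.64 with 0.01 FPKM added and 0.27 with 1 FPKM added, and 0.77 or 2.07 without DMSO replicate 1 or 3. The log2 ratio of CSF3 to IL6 averaged -3.15 ± 0.64 with mitoxantrone and -2.37 ± 0.44 with DMSO (SD, n = 3 each), a difference of -0.79 with an exact permutation p of 0.30. That difference turned positive, at 1.23, with 0.01 FPKM added, so its sign is set by the added value. The log2 ratio of CSF3 to CSF2 averaged -3.03 ± 0.21 with mitoxantrone and -0.89 ± 0.91 with DMSO (SD, n = 3 each), a difference of -2.14 with an exact permutation p of 0.10. Both genes are at 0 in DMSO library 1, where the added value alone sets the ratio, and the difference was -1.40 with 0.01 FPKM added, -1.28 with 1 FPKM added and -1.06 from counts plus 1 read. With 3 libraries against 3, 0.10 is the smallest p the test can give, and over the 3 ratios the Benjamini-Hochberg value was 0.30 for each. Whether any of the 3 genes rose more than another therefore cannot be settled with this test.

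The rank of the 3 genes by size of rise differed between the edgeR fit and the authors' own estimates, both made from the same counts. In the authors' deposited table the log2 fold changes were 2.22 for IL6, 2.46 for CSF2 and 1.29 for CSF3, with standard errors of 0.25, 0.38 and 0.39. By the edgeR fit to the same counts CSF3 ranked 33rd, CSF2 43rd and IL6 187th among the 1305 genes. In the authors' deposited table CSF2 ranked 54th, IL6 90th and CSF3 440th. DESeq2 refitted to the deposited counts with moderated folds, an alternative added after the data were seen, gave 2.44 for IL6, 3.57 for CSF2 and 3.03 for CSF3. IL6, with the most reads, moved least between these estimates, and CSF3, with the fewest, moved most.

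**Figure D3:**
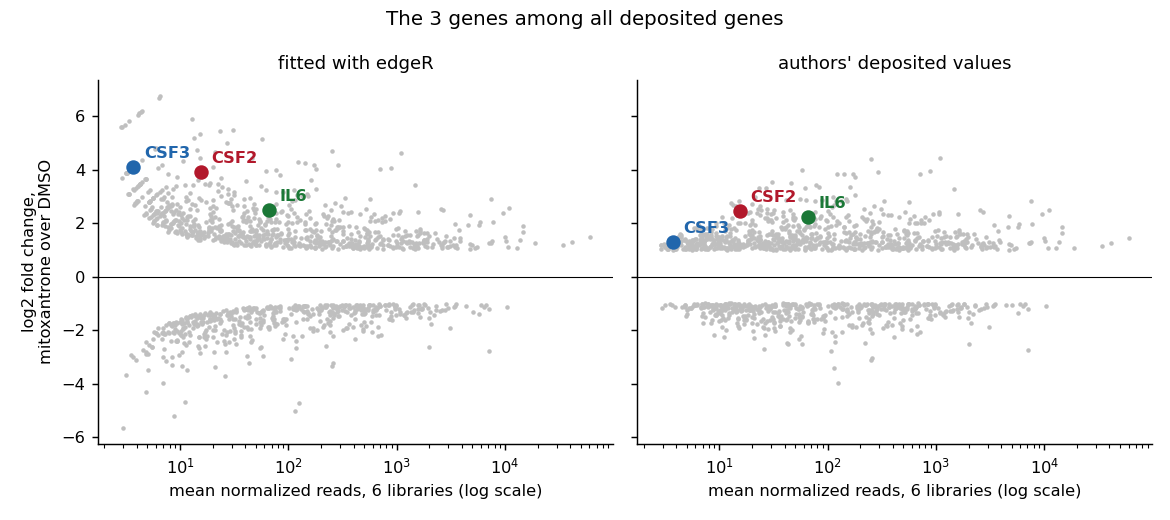
Log2 fold change of mitoxantrone over DMSO (vertical axis) against mean normalized reads over 6 libraries (horizontal log axis) for the 1305 deposited genes in grey and the 3 cytokine genes in colour, as fitted with edgeR (left) and as deposited by the authors (right). CSF3 lies at 4.10 on the left and at 1.29 on the right, where the authors' fold threshold leaves a gap around 0.

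**Figure D4:**
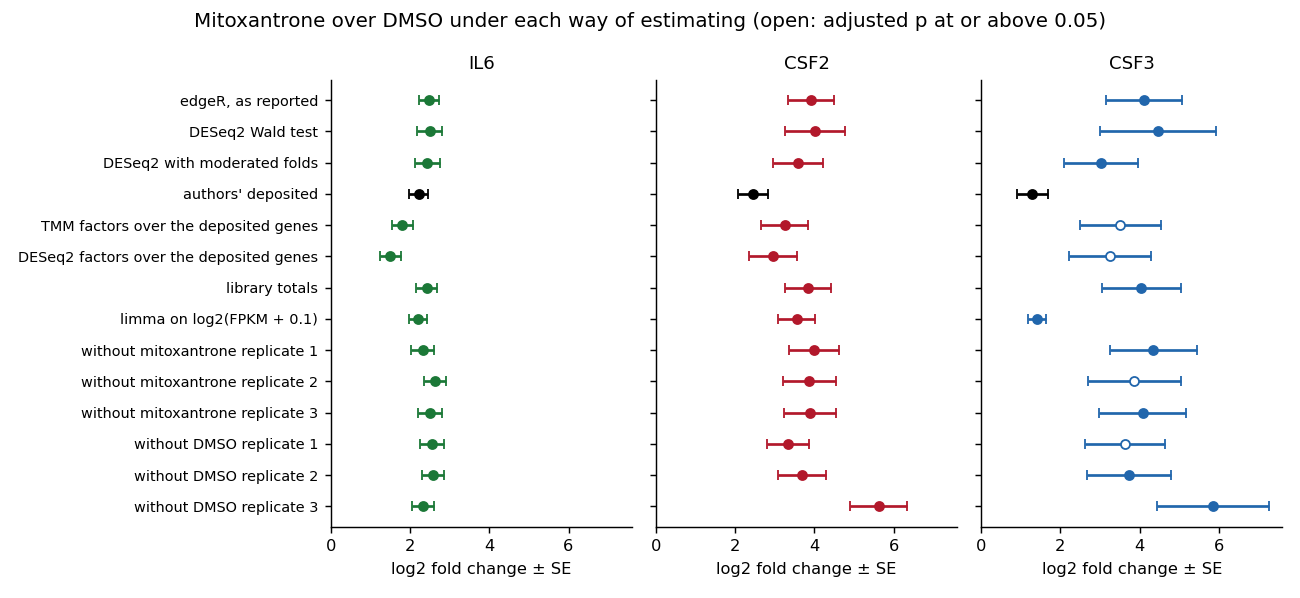
Log2 fold change of mitoxantrone over DMSO (horizontal axis) with its standard error for IL6, CSF2 and CSF3 under each way of estimating it, the authors' deposited value in black. Open points mark an adjusted p at or above 0.05, and all open points, 4 in number, belong to CSF3.

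The pathways around the 3 cytokines were read from 10 gene lists, which hold 141 genes besides IL6, CSF2 and CSF3. Of these, 27 were in the authors' table, of which 24 passed as higher, 3 passed as lower and 0 did not pass. Of all deposited genes 56.7% passed as higher, 35.3% as lower and 92% in either direction. Those shares also stand beside the counts of each list below, and every deposited gene had been selected as changed. The median log2 fold change of the 27 genes was 2.46, against 1.26 over all 1305 deposited genes. The lists were chosen with earlier results of these data known, and the 1.26 covers higher and lower genes together. The contrast is therefore a description and no test. With TMM factors over the deposited genes 22 of the 27 passed, and SOCS1, RELB, TNIP3, TICAM1 and CCL20 did not. With DESeq2 factors over the deposited genes 16 passed, and LIF, IL6R, SAA1, NFKBIZ, BIRC3 and FOS did not pass either. Over all 1305 deposited genes, TMM factors gave 366 higher and 512 lower calls, and DESeq2 factors gave 219 higher and 512 lower calls. Under the alternatives run, 0 of the 27 changed direction. The members of the lists outside the table, 114 in number, were not analysed here.

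Among cytokines of the interleukin 6 family, 3 of 11 were in the table and all 3 rose, with a median log2 fold change of 2.49. LIF, leukaemia inhibitory factor, which also signals through gp130, averaged 1215 ± 54.2 normalized reads with mitoxantrone and 463 ± 82.5 normalized reads with DMSO (SD, n = 3 each). EBI3, a subunit of the heterodimeric cytokines interleukin 27 and interleukin 35, had 35, 21 and 24 reads in the mitoxantrone libraries, against 3, 0 and 1 reads in the DMSO libraries. Per length, LIF stood above IL6 in both groups, at 18.8 FPKM against 2.52 FPKM for IL6 with mitoxantrone, and EBI3 was close to undetected without the drug. Among receptors of the family 1 of 8 was in the table: IL6R, the ligand-binding receptor of interleukin 6, averaged 128 ± 8.74 normalized reads with mitoxantrone and 41.6 ± 4.20 normalized reads with DMSO (SD, n = 3 each), a log2 fold change of 1.61.

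Of 24 genes of the JAK and STAT3 pathway and its feedback, SOCS1, SAA1 and SAA2 were in the table, and all 3 rose, with a median log2 fold change of 2.23. SOCS1, an inhibitor of JAK kinases, had 16, 18 and 19 reads in the mitoxantrone libraries, against 3, 6 and 4 reads in the DMSO libraries. SAA1 and SAA2, acute-phase proteins that interleukin 6 induces in liver, had log2 fold changes of 2.03 and 2.74. Their sequences are close to identical, so the division of reads between them is uncertain. The receptor genes of both colony-stimulating factors, CSF2RA, CSF2RB and CSF3R, were not analysed here. The 1 of 8 receptor genes of that list in the table was KIT, the receptor of stem cell factor, which fell to 4, 5 and 4 reads with mitoxantrone, against 29, 10 and 28 reads with DMSO (log2 fold change -2.07, adjusted p = 0.012, edgeR quasi-likelihood test). The KIT call ended without mitoxantrone replicate 3, DMSO replicate 1 or DMSO replicate 3 (adjusted p = 0.056, 0.081 and 0.068 in the same edgeR test). Of the 10 colony-stimulating factors and related cytokines only CSF2 and CSF3 were in the table.

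Genes that encode regulators of cytokine transcription moved in both directions. Of 17 NF-kappaB subunits and feedback inhibitors 5 were in the table, and all 5 rose, with a median log2 fold change of 1.39. TNFAIP3, which encodes the inhibitor A20, averaged 999 ± 95.04 normalized reads with mitoxantrone and 134 ± 35.7 normalized reads with DMSO (SD, n = 3 each), a log2 fold change of 2.90. RELB, a subunit of the non-canonical NF-kappaB dimer, NFKBIZ, a nuclear regulator of NF-kappaB, BIRC3, a ubiquitin ligase, and TNIP3, an A20-binding protein, had log2 fold changes of 1.05, 1.39, 1.36 and 2.72. With DESeq2 factors over the deposited genes TNFAIP3 alone of the 5 passed, and the other values were 0.06 for RELB, 0.40 for NFKBIZ, 0.37 for BIRC3 and 1.76 for TNIP3. Of 15 AP-1 and C/EBP factors 3 were in the table, of which FOS rose (log2 fold change 1.47) and CEBPA and CEBPD fell (-1.30 and -1.24). CEBPD, a C/EBP factor of the acute-phase response, averaged 277 ± 91.6 normalized reads with mitoxantrone and 652 ± 136 normalized reads with DMSO (SD, n = 3 each). Of 13 factors that control the decay of cytokine mRNA, 0 were in the table.

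Of 25 upstream inducers and their receptors 6 were in the table, and all 6 rose, with a median log2 fold change of 2.53. Over all deposited genes, which were selected as changed, 56.7% passed as higher. IL1A and IL1B, the interleukin 1 cytokines that induce both IL6 and colony-stimulating factors, had log2 fold changes of 2.53 and 2.46. IL1R2, a decoy receptor of interleukin 1, TLR4, the receptor of bacterial lipopolysaccharide, and IRAK2, a kinase downstream of both receptor families, had log2 fold changes of 2.70, 2.66 and 2.53, and TICAM1, a Toll-like receptor adaptor, 1.15. Of 14 neutrophil and monocyte chemokines 6 were in the table, and all 6 rose, with a median log2 fold change of 3.61. CXCL8 (listed as IL8) averaged 116 ± 21.9 normalized reads with mitoxantrone and 7.50 ± 3.57 normalized reads with DMSO (SD, n = 3 each). Over the deposited lengths CXCL8 averaged 3.12 FPKM with mitoxantrone, near the 2.52 FPKM of IL6. Over its principal transcript IL6 averaged 5.78 FPKM with mitoxantrone, and CXCL8 was not recomputed. PPBP, a chemokine best known from platelets, had 42, 43 and 41 reads with mitoxantrone, against 0, 3 and 0 reads with DMSO. CXCL1, CXCL2 and CXCL3 had log2 fold changes of 4.17, 2.76 and 3.25 and resemble one another in sequence, which leaves the division of their reads uncertain. CCL20 rose by 2.34 on the log2 scale (adjusted p = 0.016, edgeR quasi-likelihood test), and its call ended without mitoxantrone replicate 1 or DMSO replicate 3 (adjusted p = 0.11 and 0.099 in the same edgeR test) and with TMM or DESeq2 factors over the deposited genes (adjusted p = 0.21 and 0.69).

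**Figure D5:**
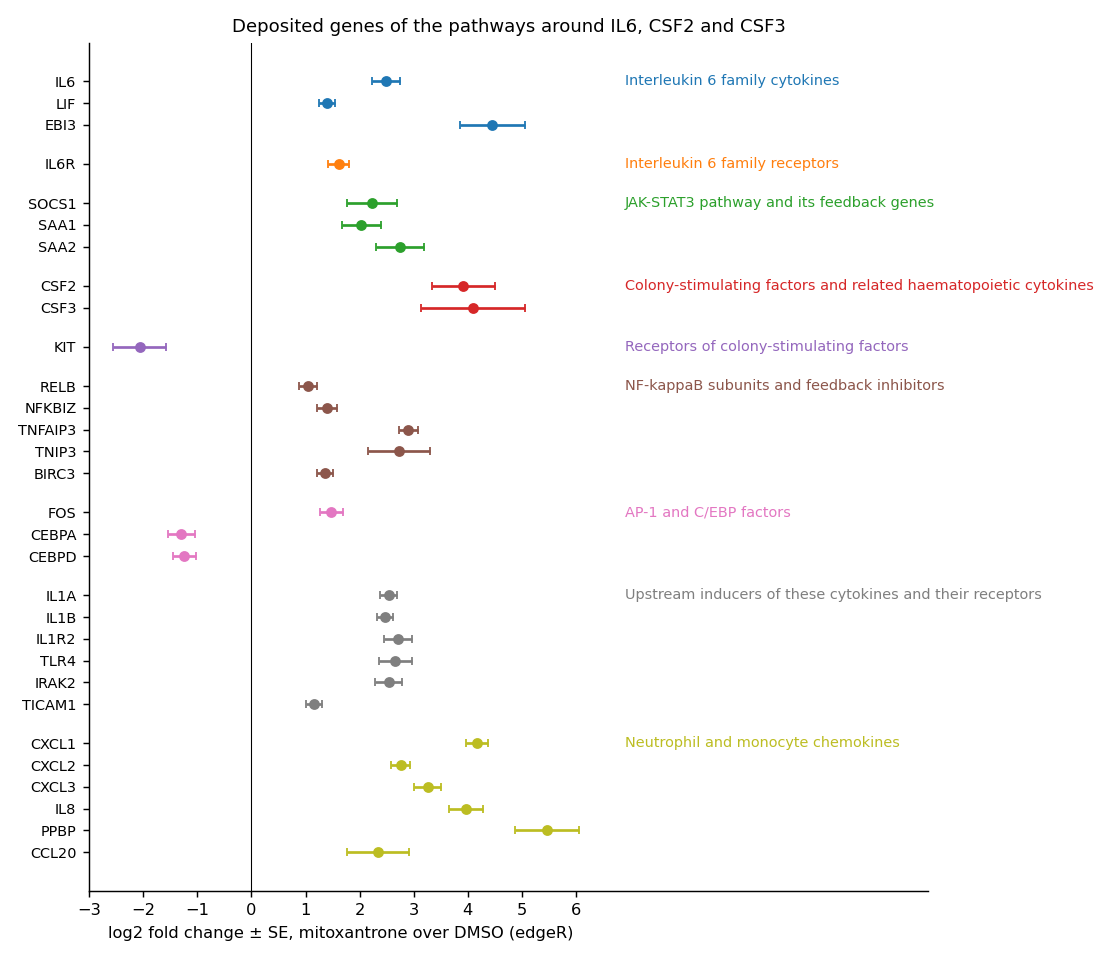
Log2 fold change of mitoxantrone over DMSO with its standard error (horizontal axis) for the deposited genes of the pathway lists, coloured by list; marker lists are not drawn. All genes drawn lie right of 0 except KIT, CEBPA and CEBPD, at -2.07, -1.30 and -1.24.

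The genes whose pattern over the 6 libraries was most like that of each cytokine were found by the root mean square difference of centred log2 normalized reads, with 1 read added, among the 1103 other genes with a mean of at least 10 normalized reads. For IL6 these were IL1B, IL1A, DHRS2 and KRT6A, at differences of 0.14 to 0.19 log2 units. IL1B averaged 1810 ± 137 normalized reads with mitoxantrone and 329 ± 50.5 normalized reads with DMSO (SD, n = 3 each). Its 5.51-fold rise was close in size to the 5.61-fold rise of IL6. For CSF2 the nearest were SHC4, GAST, FMOD and the pseudogene NBEAP1, at 0.47 to 0.64 log2 units, and for CSF3 they were ACTBL2, TNFRSF10C, C3 and HEPHL1, at 0.25 to 0.29. The distances between the cytokines themselves were 1.10 between IL6 and CSF2, 0.65 between IL6 and CSF3 and 0.73 between CSF2 and CSF3. The nearest genes are the smallest of 1103 distances, so larger values for named pairs say little about how alike the cytokines are. No typical distance between genes was computed. The added read shrinks the profile of CSF3 more than that of the other genes.

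Within 1000 kb of each cytokine gene, a window chosen after the data were seen, the table held 1 other gene near IL6, 0 near CSF2 and 5 near CSF3. Near CSF3, GSDMA, a gasdermin gene 37.6 kb away, rose by 5.18 on the log2 scale (adjusted p = 2.4e-05, edgeR quasi-likelihood test). NR1D1 at 74.97 kb, TNS4 at 458 kb and RP5-1028K7.2 at 499 kb also passed as higher, and TOP2A at 371 kb passed as lower. The gene near IL6, AC002480.3 at 152 kb, passed as higher. The listed neighbours of CSF3 moved in both directions, where 56.7% of all deposited genes passed as higher and 35.3% as lower. Neighbours outside the table, which holds only genes selected as changed, were not analysed here.

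Markers of cell types that also produce these cytokines were read from the same table. Of 12 myeloid markers CD14, ITGAM and S100A9 were in the table, with summed levels of 978 to 1240 normalized reads with mitoxantrone and 264 to 351 normalized reads with DMSO. S100A9, which squamous epithelial cells also express, made up most of these sums and had a log2 fold change of 2.06. ITGAM, an integrin chain of myeloid cells, had 11, 31 and 18 reads with mitoxantrone and 6, 1 and 5 reads with DMSO, while CD14 had 23, 26 and 22 reads with mitoxantrone and 50, 57 and 82 reads with DMSO. Of 10 fibroblast markers COL1A1 fell and ACTA2 rose, with log2 fold changes of -1.30 and 1.33 and summed levels of 521 to 546 normalized reads with mitoxantrone and 447 to 572 normalized reads with DMSO. Of 8 endothelial markers CDH5 fell to a range of 188 to 230 normalized reads with mitoxantrone, against 386 to 517 normalized reads with DMSO, and of 10 lymphoid markers 0 were in the table. The part of these markers in the cytokine results was not tested.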

How the data were processed

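Total RNA of 6 NCI-H292 libraries was sequenced in pairs of 150-base reads. The labels' protocols name both a poly(A) kit and an rRNA removal kit and do not say which was used. Tools named in the submitters' processing notes, without role or order, are DESeq2, Cufflinks 2.2.1, HTSeq 0.6.1, HISAT2 2.0.1 and cutadapt 1.9.1; the build is not given in the sources used here. Per the file headers, the authors' table holds raw read counts and FPKM values per library, and gene length. Per the file headers it also holds the authors' mean normalized count (a signal value), log2 fold change, Wald score, p-value and adjusted p-value. It lists genes past an absolute log2 fold change of 1.0 only, and the largest adjusted p among them was 0.0428 in the authors' Wald test.

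Size factors were solved from the deposited counts and mean normalized counts (largest relative error 5.0e-10), and library totals from counts, FPKM and lengths (100% of FPKM values given back within 0.006 plus 0.02%). The authors' adjusted p-values divided by their p-values gave 18313 tests (86.4% of these quotients gave whole ranks at this number). Counts were fitted by edgeR's quasi-likelihood test (R 4.3.3, edgeR 4.0.16 with limma 3.58.1) over all 1305 genes, without a block or filter, and adjusted by Benjamini-Hochberg over 18313 tests, which enlarges adjusted p-values because only the deposited genes were ranked. Dispersions from selected genes tend to be too low. The fit was tested on simulated data. DESeq2 1.42.0 was an alternative. Ratios used exact permutation tests, adjusted in statsmodels 0.14.6, and counting intervals are exact binomial (scipy 1.17.1); intervals and the floor of 3 reads cover counting error only. Principal transcripts are those with an APPRIS principal tag and support level 1 in GENCODE release 29. No 2 libraries of a group were duplicates, with a chi-square per gene of 3.05 to 29.0. Columns of per-library values left unused numbered 0.

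The 3 genes and all lists (10 pathway lists, 5 marker lists) were chosen with earlier results of these data known. Named genes were the 3 cytokines, every list gene in the table, and the 4 genes nearest to each cytokine among those with a mean of at least 10; neighbours in the genome were added after their values were seen.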

Additional observations from a re-analysis of the deposited data

How the results depend on the processing

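IL6 and CSF2 kept their direction and an adjusted p under 0.05 in all 15 alternatives run, with IL6 log2 fold changes of 1.25 to 2.63 and CSF2 of 1.53 to 5.62; the lowest of each came from log2(FPKM + 1), which shrinks low values by construction. CSF3 kept its direction in all 14 and passed in 10, with log2 fold changes of 0.24 to 5.84. The lowest again came from log2(FPKM + 1), and log2(FPKM + 0.1) gave 1.41. Leaving out a replicate in turn gave 3.62 to 5.84, and CSF3 is below the filter of 10 mean reads. With TMM factors over the deposited genes CSF3 did not pass the edgeR quasi-likelihood test (3.51, adjusted p = 0.066). Nor did it with DESeq2 factors over the same genes (3.25, adjusted p = 0.15 in the same edgeR test). Those factors treat a set selected as mostly higher as unchanged and shifted the median gene by -0.69 (TMM) and -0.99 (DESeq2). They gave 366 higher against 512 lower calls (41.7% higher) and 219 against 512 (30.0%), where the reported fit gave 740 against 461 (61.6%), and with DESeq2 factors 16 of the 27 pathway genes passed. The ratio of CSF3 to IL6 reversed with 0.01 FPKM added (1.23) and with counts plus 1 read (0.36); the added value sets it where CSF3 is at 0. The labels do not say whether replicate numbers mark shared cultures. Deviations of same-numbered libraries correlated at -0.23, -0.15 and 0.03, and no library of mitoxantrone correlated best with its own number. Such correlations, of deviations centred within 3 libraries, cannot settle whether the libraries were paired. With the replicate block, log2 fold changes were 2.49 for IL6, 3.97 for CSF2 and 4.08 for CSF3 and calls numbered 736 higher and 463 lower. Adjusted p-values in the edgeR quasi-likelihood test were 1.4e-13, 3.6e-08 and 0.012 with the block, against 5.0e-06, 1.6e-04 and 0.012 without it. Paired, the CSF2 to IL6, CSF3 to IL6 and CSF3 to CSF2 ratio differences stayed 1.35, -0.79 and -2.14 by construction. CSF3, at 1 to 9 reads where detected, is limited by depth.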
